A study of Mus musculus with 28 samples.

Results

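Chromatin regions that were open in periosteal skeletal stem/progenitor cells (pSSPCs) of control mice and in no library of growth plate skeletal stem/progenitor cells (gpSSPCs) are described here. ATAC-seq, in which a transposase cuts open chromatin, was done on 12 libraries, and the peak list of each, on chromosomes 1 to 19 and X, was shortened to the 59183 peaks with the highest −log10 q-values, the length of the shortest list. Peaks overlapping by at least 1 bp were merged into 122248 regions. Of these, 10622 (8.69%) held a peak in all 3 control pSSPC libraries and in none of the 6 gpSSPC libraries, and they are called pSSPC-only regions. The regions were thus chosen by the presence of these peaks, ranked on −log10 q-value, and these values are given as a description. The mirror set, open in all 3 control gpSSPC libraries and in no pSSPC library, had 12458 regions (10.2%, gpSSPC-only regions), and 21569 regions (17.6%) had a peak in all 12 libraries.

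The study asked how loss of *Zmpste24* (*Z24*), the protease that matures lamin A, changes skeletal progenitors. pSSPCs were Ai9+ Sca1+ cells from the periosteum and gpSSPCs were Ai9+ CD73+ cells from the growth plate, sorted without CD45+, Ter119+ and CD31+ cells from mice of 20 weeks. Control and CKO (*Z24*-deficient) cells of both populations were given 3 ATAC-seq libraries (3000 to 5000 cells each) and 3 RNA-seq libraries (1000 cells each) per group. All mice carried a Cre transgene under *Prrx1* regulatory sequence (Prx-Cre), which is active in limb mesenchyme, so that the Ai9 reporter marks descendants of that lineage and not a single cell type. The titles of the samples separate control from CKO, but the genotype label reads PrxCre; Z24fl/fl for every one of them, and no label says which libraries share an animal. In RNA-seq, *Zmpste24* had 0.823 and 16.4 CPM (counts scaled to library size) in control pSSPCs and 0 and 7.44 CPM in CKO pSSPCs, and 4.62 and 15.7 CPM against 1.14 and 7.86 CPM in gpSSPCs. The CKO value was lower in each replicate, but the level was low and the deleted exons cannot be seen in counts per gene.

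The periosteum is the fibrous sheath of bone, and its inner cells supply bone and cartilage during growth and repair. Distal enhancers, which lie in introns or between genes, differ more between cell types than promoters do, and transcription factors bound there open the chromatin. Stromal progenitors of connective tissue are known for *Pdgfra*, *Cd34* and *Ly6a* (Sca1) and for factors such as PRRX1, OSR1 and the EBF family, while growth plate cells are known for SOX9 and the cartilage collagens that it controls. AP-1, a dimer of FOS and JUN proteins, binds enhancers in many stromal cells.

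Markers of the labelled populations were present. *Cd34*, a surface protein of stromal progenitors, had 678 and 664 CPM in control pSSPCs and 116 and 171 CPM in control gpSSPCs. *Col2a1*, the main cartilage collagen, had 4470 and 2120 CPM in pSSPCs and 24800 and 15300 CPM in gpSSPCs. The groups did not overlap for either gene. *Ly6a* (1220 and 2790 CPM against 298 and 830 CPM) and *Nt5e*, the CD73 gene (54.3 and 54.4 CPM against 244 and 198 CPM), encode the antigens of the sort, so their differences are not findings.

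The regions were mostly distal, but a few covered promoters, and the promoters next to genes with higher RNA in pSSPCs are shown first because their sequences can be read. The 250 bases before the transcription start were taken from RefSeq (GRCm38.p6, the build named mm10 in the peak lists). pSSPC-only regions covered 195 of 32619 such windows whole, belonging to 179 symbols, and 61 of the genes were tested for RNA. In control pSSPCs against control gpSSPCs, in the fit with a replicate block described with the RNA, 12 of them were higher (19.7%, against 2.37% of all genes tested) and 1 was lower (all genes 1.24%). Shown are the 4 of these 13 genes whose window holds an AP-1 motif (TGANTCA, N for any base, its matched letters in capitals) and, for contrast, 2 without a match that code for known stromal proteins, chosen after their values were seen. *Hmcn2* codes for a hemicentin of the extracellular matrix (chr2:31314082-31314331, plus strand), *Ifitm3* for an interferon-induced membrane protein (chr7:141010745-141010994, minus), *Tmod2* for a tropomodulin that caps actin filaments (chr9:75599134-75599383, minus) and *Celf2* for an RNA-binding protein (chr2:7081303-7081552, minus). *Pi16* codes for a secreted peptidase inhibitor domain protein of fibroblasts (chr17:29318632-29318881, plus) and *Aspn* for asporin, a small proteoglycan that binds collagen and TGF-beta (chr13:49544193-49544442, plus). Each sequence reads 5′ to 3′ on the gene's strand and ends at the base before the start.
Hmcn2: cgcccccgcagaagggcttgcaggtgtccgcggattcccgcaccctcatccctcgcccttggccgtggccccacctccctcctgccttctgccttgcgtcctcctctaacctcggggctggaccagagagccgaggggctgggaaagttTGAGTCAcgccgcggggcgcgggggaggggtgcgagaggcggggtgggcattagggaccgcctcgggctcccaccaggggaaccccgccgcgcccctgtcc
Ifitm3: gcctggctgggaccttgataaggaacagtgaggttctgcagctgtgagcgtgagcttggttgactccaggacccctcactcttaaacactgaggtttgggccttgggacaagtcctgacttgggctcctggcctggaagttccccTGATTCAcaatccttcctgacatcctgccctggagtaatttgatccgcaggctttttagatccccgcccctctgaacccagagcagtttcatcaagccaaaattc
Tmod2: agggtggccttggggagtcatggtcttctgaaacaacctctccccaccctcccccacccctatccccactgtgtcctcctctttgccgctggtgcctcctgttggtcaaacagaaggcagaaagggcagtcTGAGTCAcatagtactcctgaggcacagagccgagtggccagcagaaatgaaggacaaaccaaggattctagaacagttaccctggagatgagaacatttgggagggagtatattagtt
Celf2: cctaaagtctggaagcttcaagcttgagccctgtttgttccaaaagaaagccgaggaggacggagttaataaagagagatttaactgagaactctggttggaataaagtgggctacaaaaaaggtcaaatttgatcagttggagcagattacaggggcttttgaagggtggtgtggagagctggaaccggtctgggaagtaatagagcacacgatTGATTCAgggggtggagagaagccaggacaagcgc
Pi16: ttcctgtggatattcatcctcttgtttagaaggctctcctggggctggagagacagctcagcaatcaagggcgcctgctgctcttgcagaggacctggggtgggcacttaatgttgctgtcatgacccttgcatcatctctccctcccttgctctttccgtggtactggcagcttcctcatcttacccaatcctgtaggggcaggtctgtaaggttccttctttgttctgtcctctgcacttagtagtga
Aspn: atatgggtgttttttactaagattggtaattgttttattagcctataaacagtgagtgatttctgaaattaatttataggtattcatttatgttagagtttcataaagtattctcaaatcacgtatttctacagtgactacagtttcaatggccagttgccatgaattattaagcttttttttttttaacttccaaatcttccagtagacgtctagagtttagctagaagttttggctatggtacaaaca

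The first base of the AP-1 match lay at −101 in *Hmcn2*, −105 in *Ifitm3*, −119 in *Tmod2* and −35 in *Celf2*, counted from the start. The peak over *Hmcn2* had a fold enrichment over local background of 6.75, 6.83 and 6.16 in the control pSSPC libraries (replicates 1, 2 and 3) and of 7.56, 6.65 and 7.08 in the CKO pSSPC libraries. That over *Ifitm3* had 4.8, 5.08 and 5.81 in control and 5.69, 6.13 and 5 in CKO. For both, the control and CKO values overlapped. Before the lists were shortened, the *Hmcn2* region also had a peak in 2 gpSSPC libraries, that of *Ifitm3* in 3 and that of *Tmod2* in 1. The regions of *Celf2*, *Pi16* and *Aspn* had no such peak. The *Celf2* region had 4.6, 4.68 and 6.79 in control and a peak in only 2 CKO libraries, and the *Aspn* region, at 3.49, 5.56 and 4.02, also had a peak in 2. *Ifitm3* RNA was 2080 and 5550 CPM in control pSSPCs and 389 and 1400 CPM in control gpSSPCs (log2 fold change 2.19 ± 0.2 (SE), adjusted p = 1.01e-08, edgeR with a replicate block), so that every pSSPC value exceeded every gpSSPC value. *Hmcn2* RNA was 102 and 271 CPM in control pSSPCs, 127 and 135 CPM in CKO pSSPCs, 27.3 and 54.8 CPM in control gpSSPCs and 30.1 and 50.8 CPM in CKO gpSSPCs (2.13 ± 0.44, adjusted p = 0.00268 in control).

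AP-1 letters, on either strand, were found in 35 of the 195 covered windows (17.9%). They were found in 11.4% of the 333 windows covered by gpSSPC-only regions, in 3.98% of the 11625 windows covered by regions open in all 12 libraries, and in 6.78% of all windows. Among the 25 motifs searched, the CEBP letters TTGCNNAA (15.9%, against 10.2% in gpSSPC-only windows and 9.62% in all) and the TEAD letters GGAATG (19.5%, against 14.7% and 12.6%) were also more frequent than in all windows. So were the NF-kB letters (26.2%, against 20.7% in gpSSPC-only windows and 17.8% in all), but 24.7% of the windows open in all 12 libraries held them too. The E-box CATCTG of the TWIST and TAL type was in 21.5%, against 18.3% of gpSSPC-only windows and 14.4% of all windows. The E-box CAGCTG of the TCF21 and MYOD type was in 19%, above all windows (13.1%) but close to the gpSSPC-only windows (18.3%). RUNX letters (TGTGGT) were in 16.9% of windows, above all windows (13.9%) but below the gpSSPC-only windows (24.3%), and the STAT and NFI letters were in 4 and 2 windows only. The ZEB and SNAI type E-box CACCTG was in 6.15% of windows, compared with 23.7% of gpSSPC-only windows and 17.3% of all windows. GGGCGG, bound by SP and KLF factors, was in 26.2%, 25.8% and 33% of these sets and in 65.5% of the windows open in all 12 libraries, which are richer in G and C (median 62.4%, against 50% in pSSPC-only windows). These shares are descriptions without a test. Windows of the same gene overlap in part, the sets differ in base composition, and a match is not a bound site.

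pSSPC-only regions were 240 to 2809 bp wide (median 746 bp, middle 50% of regions 584 to 937 bp). Their width was close to that of gpSSPC-only regions (median 764 bp), while regions open in all 12 libraries were wider (median 1196 bp, all merged regions 647 bp). A region spans every peak merged into it, and regions open in all 12 libraries join peaks of more libraries, so these widths are not on like terms. The median fold enrichment of their peaks was 7.1, 6.3 and 7.74 in the 3 control pSSPC libraries, with highest values of 20.2, 19.7 and 20.8. The strongest region by its weakest control peak was chr3:39944176-39945144, an intergenic region with a fold enrichment of 16.3, 18.1 and 15.6 in control and 16.9, 18.4 and 15.9 in CKO pSSPC libraries. It lay 587 kb from *Intu*, the nearest protein-coding gene. Among the 10 strongest, chr15:62003636-62004505 was 18.8 kb from *Myc*, a growth-promoting transcription factor, chr13:118940545-118941576 was 271 kb from *Fgf10*, a fibroblast growth factor, and chr15:55319340-55320618 lay in an intron of *Col14a1*, 12.1 kb from its start. *Col14a1*, a collagen on the surface of collagen fibrils, rose in pSSPCs (231 and 449 CPM against 31.9 and 117 CPM, log2 fold change 2.33 ± 0.36, adjusted p = 5.33e-05 with the replicate block). *Myc* RNA (261 and 218 CPM against 196 and 175 CPM, adjusted p = 0.661) and *Fgf10* RNA (22.2 and 10.6 CPM against 0.42 and 1.22 CPM, adjusted p = 0.108) did not pass the test. All 10 regions had a peak in the 3 CKO pSSPC libraries. Before the lists were shortened, the region near *Myc* also had a peak in 4 gpSSPC libraries. Those nearest to *Intu*, *Fgf10* and *Col14a1* had one in 2 gpSSPC libraries each.

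Absence from gpSSPCs held for lists of equal length, which ended at unequal −log10 q-values. The lowest value kept was 4.23, 1.32 and 8.07 in the control pSSPC libraries. It was 11.1, 9.36 and 8.63 in the control gpSSPC libraries and 7.43, 6.49 and 4.37 in the CKO gpSSPC libraries. A gpSSPC peak left out could thus have a higher value than a pSSPC peak that was kept. In the full lists, 6451 regions (60.7%) had no peak in any gpSSPC library, 1991 had one in 1 library, 1160 in 2 and 13 in all 6. The share of regions with a peak in a full list was 27.1%, 15.4% and 13.1% in the control gpSSPC libraries and 8.85%, 6.85% and 3.32% in the CKO gpSSPC libraries. The full lists hold 59183 to 101555 peaks on these chromosomes, and among the gpSSPC libraries the shares fell in the order of their lengths, from 98514 to 68908 peaks; the part of list length in the shares was not tested. Strong regions were more often shared, since 49.0% of the strongest and 65.5% of the weakest of 4 equal classes had no gpSSPC peak in the full lists. The regions just inside the length limit had their weakest peak at ranks 59151 to 59179 of a list (−log10 q-value 4.23 to 8.09), and those just outside at ranks 59191 to 59210 (4.23 to 8.05). In 1414 further regions without a gpSSPC peak, 2 control libraries had a peak within the limit and the third had one below it.

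**Figure D1:**
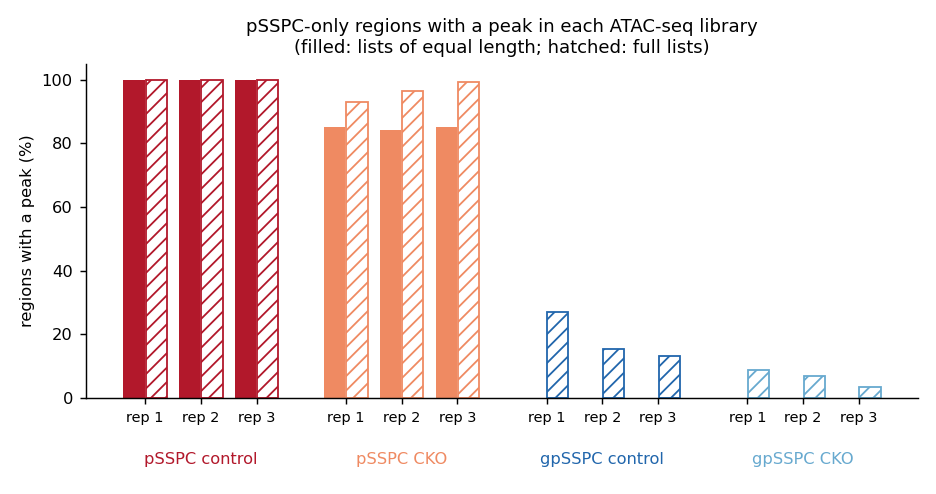
Share of the 10622 pSSPC-only regions with a peak in each of the 12 ATAC-seq libraries (y axis, percent), with lists of equal length as filled bars and full lists as hatched bars. The control pSSPC bars at 100 and the filled gpSSPC bars at 0 follow from the choice of the regions, and the CKO pSSPC libraries, in which no peak was asked for, lie at 84.2% to 85.2%.

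By location, 4928 pSSPC-only regions (46.4%, Wilson 95% interval 45.4 to 47.3, for counting error only) lay in introns, 4532 (42.7%, 41.7 to 43.6) between genes, 396 (3.73%, 3.38 to 4.11) in exons and 766 (7.21%, 6.73 to 7.72) within 1 kb of a transcript start. The share at promoters was 9.72% (9.21 to 10.3) for gpSSPC-only regions, 18.8% for all merged regions and 57.0% for regions open in all 12 libraries. The median distance from summit to nearest gene start was 22 kb, against 18.1 kb for gpSSPC-only regions and 1.24 kb for regions open throughout. Thus 75% of pSSPC-only regions were within 50 kb of a start and 9.57% were over 100 kb away. On the autosomes, 7.55% to 9.78% of the merged regions of a chromosome were pSSPC-only.

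The regions were unevenly divided among genes. They were nearest to 6926 of the 52013 annotated genes with RNA counts (13.3%), and of these 4768 had 1 region, 1322 had 2, 680 had 3 or 4, 150 had 5 to 9 and 6 had 10 or more. The 10 genes with most regions, with ties in alphabetical order, were *Bmper* (16), D730003K21Rik (16), 9430078K24Rik (14), Gm25715 (12), *Adamts5* (11), Gm24363 (11) and C430019N01Rik, *Cmss1*, *Col6a6* and Gm12519 (9 each). *Bmper* codes for a secreted protein that binds BMPs, and its regions, 13 of them intronic, were spread over 403 kb of chromosome 9. They were 21.9% of the 73 merged regions nearest to it, against 8.69% of all merged regions, beside 7 gpSSPC-only regions. *Bmper* RNA was 42 and 30.6 CPM in control pSSPCs and 5.46 and 25 CPM in control gpSSPCs (log2 fold change 1.62 ± 0.85, adjusted p = 0.398 with the block). *Adamts5*, an aggrecan-cleaving protease, had 79 and 182 CPM against 52 and 53.7 CPM (1.29 ± 0.47, adjusted p = 0.151). In both genes the pSSPC samples were above the gpSSPC samples, but neither passed the test. *Scara5*, a ferritin receptor of stromal cells with 9 regions, had 55.9 and 185 CPM against 7.14 and 48.1 CPM and rose (2.44 ± 0.54, adjusted p = 0.00513). Many of the genes are non-coding, so the regions were also assigned to 4827 protein-coding genes. By that count *Tgfbr2* led with 22 of the 81 merged regions nearest to it, beside 5 gpSSPC-only regions.

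Most regions had a peak in the CKO pSSPC libraries. Their presence was not asked for in the choice, but their peaks entered the merging of regions, and 10627 to 10742 regions were chosen with 1 of them left out. A peak was present in all 3 CKO libraries for 7736 regions (72.8%, Wilson 95% interval 72.0 to 73.7), in 2 for 1497 (14.1%), in 1 for 837 (7.88%) and in none for 552 (5.2%, 4.79 to 5.64). Per library the share was 85.2%, 84.2% and 85.2% (84.9% ± 0.603, SD, n = 3). Since the control peaks chose the regions, control and CKO were compared with each control library left out of the choice in turn. The left-out control library then held 87.4%, 78.4% and 87.8% of the regions (84.6% ± 5.33, SD, n = 3) and the CKO libraries 79.5%, 78.5% and 79.8% (79.3% ± 0.657). The difference was −5.29 percentage points, and the CKO values lay within the range of the control values. An exact two-sided permutation test gave p = 0.4, but 3 against 3 cannot go below 0.1, so it could not have passed. Each CKO value is a mean over the 3 choices of regions and each control value comes from 1, so their spreads are not alike. Replicate 2, the control library with the fewest tags (12250713), held 78.4% where the CKO libraries held 78.7%, 76.9% and 80.4% of the same regions. Control replicates 1 and 3 lay above all CKO libraries. The part of tags in these shares was not tested. For gpSSPC-only regions in gpSSPCs the shares were 87.0% ± 6.19 and 84.5% ± 6.79 (difference −2.5, exact permutation p = 0.6, with the same limits).

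A CKO peak was more frequent at stronger regions. The control −log10 q-values that chose the regions also make these classes, so this is a description. The regions were divided into 4 equal classes by the lowest −log10 q-value of their control peaks, and a peak in all 3 CKO libraries was found for 48.7%, 62.0%, 82.6% and 98.0% from the weakest to the strongest class. No CKO peak was found for 12.6%, 6.7%, 1.47% and 0.0377%. The same rise was seen in control libraries left out of the choice, an alternative added after seeing the data. With control replicate 1 left out it held 71.9%, 84.7%, 93.7% and 99.5% of the classes made from the other control libraries, with replicate 2 left out 56.8%, 71.5%, 87.2% and 98.1%, and with replicate 3 left out 71.9%, 84.4%, 95.3% and 99.8%. In the weakest class the CKO libraries held 60.3% to 66.0%, 56.0% to 63.0% and 56.6% to 57.0% of the same regions. Control replicates 1 and 3 lay above these ranges, while replicate 2, at 56.8%, lay within its range. The order was the same for width, with 54.2%, 70.1%, 79.6% and 87.5% in all 3 CKO libraries from the narrowest to the widest class. The width of a region spans every peak merged into it, CKO peaks included. Regions with CKO peaks can thus be wider for that reason alone, and the order by width is a description too. The shares differed less between locations, with 71.4% for promoters, 72.6% for introns, 73.7% for intergenic regions and 68.4% for exons. The median fold enrichment was 7.19, 8.04 and 7.4 in the CKO libraries, which covers only the regions that kept a peak and so cannot be set against the control medians over all regions.

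**Figure D2:**
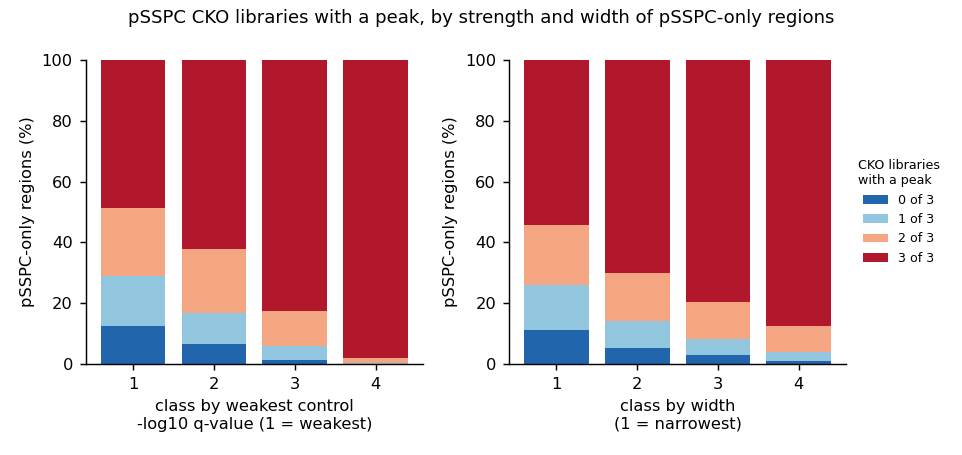
Share of pSSPC-only regions (y axis, percent) with a peak in 0, 1, 2 or 3 of the CKO pSSPC libraries, stacked for 4 equal classes by the lowest control −log10 q-value (left) and by width (right). The share in all 3 rose from 48.7% to 98.0% with strength and from 54.2% to 87.5% with width. Width spans every peak merged into a region, CKO peaks included, so the width classes are not independent of the peaks counted.

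Most of the 552 regions without a CKO peak had a weaker one below the length limit. In the full CKO lists 157 of them had a peak in all 3 libraries, 240 in 2, 124 in 1 and 31 in none. The strongest, chr3:24432681-24433376, had a fold enrichment of 14.4, 10.1 and 11 in the control libraries and a peak in all 3 full CKO lists. The next ones were chr2:114427463-114427832 (8.43, 9.09 and 7.59), chr6:53474088-53474988, in an intron 188 kb from the start of *Creb5*, a CREB family factor (6.46, 8.42 and 4.66), chr11:67204645-67205435 in an intron annotated 4.83 kb from the start of *Myh1*, a muscle myosin (9.06, 7.53 and 7.59), and chr4:96745460-96746154 (7.63, 7.69 and 8.9). The first 3 of these 5 regions had a peak in every full CKO list and the last 2 in 2 of them. *Creb5* RNA was 7.4 and 83.3 CPM in control pSSPCs and 40.5 and 99.4 CPM in CKO pSSPCs, and the groups overlapped.

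RNA-seq was read next for the genes nearest to the regions. Total counts were 1333260 to 5315709 per library. Replicates 2 and 3 of a group were nearly alike (a chi-square over degrees of freedom between 0.82 and 0.98 in genes of 5 to 99 counts, less than sampling noise, and between 1.59 and 1.92 in genes of 20 or more, where pairs with replicate 1 had 53.2 to 71.5) and were summed to 1 sample, leaving n = 2 per group, replicate 1 and the sum. They may be the same material, so p-values measure only the spread between these samples. Replicate 1 stood apart in every group, with 12082 to 12981 genes detected against 15776 to 17207. Same-numbered samples of the groups deviated together (correlation 0.524 to 0.582), and so the fit with the replicate number as a block is given beside the one without. In such bulk samples fewer cells of a type and less RNA per cell cannot be told apart.

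Of the 6926 nearest genes, 1987 passed the filter on low counts, which a gene can pass through its pSSPC samples alone. With the replicate block, 133 of them were higher in control pSSPCs than in control gpSSPCs (6.69%, against 2.37% of all 13173 genes tested) and 34 lower (1.71%, against 1.24%). Their median log2 fold change was 0.28, compared with −0.04 for all genes. The 167 calls became 58 without gpSSPC replicate 1, 77 without gpSSPC replicates 2 and 3, 93 without pSSPC replicate 1 and 239 without pSSPC replicates 2 and 3. Without the block edgeR called 0 genes, near the regions or elsewhere, and at an unadjusted p under 0.05 it had 195 higher and 45 lower nearest genes, against 527 (4%) and 287 (2.18%) of all genes. DESeq2 without the block called 81 higher and 19 lower of the 945 to which it gave an adjusted p, against 172 (2.86%) and 79 (1.31%) of 6022. In CKO cells, which share no sample with the control comparison, the block gave 69 higher (3.47%, against 1.11% of all genes) and 31 lower (1.56%, against 1.25%) with a median of 0.30 (all genes 0.02). Without it edgeR called 0 there too, with 107 higher and 48 lower at an unadjusted p under 0.05, against 258 (1.96%) and 310 (2.35%) of all genes, and DESeq2 called 16 and 15 near the regions, against 34 (0.52%) and 73 (1.12%) of 6533.

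The number of regions went with the RNA difference. Genes with no region were higher in control pSSPCs in 1.6% of 11186 cases, those with 1 region in 3.97% of 1385, with 2 in 9.95% of 382, with 3 or 4 in 15.3% of 177 and with 5 or more in 30.2% of 43. The medians of the log2 fold change were −0.09, 0.17, 0.33, 0.85 and 1.41. In CKO cells 0.688%, 2.67%, 3.14%, 8.47% and 11.6% were higher, and the medians were −0.02, 0.17, 0.51, 0.90 and 0.90, so that the last step of the median was not seen there. Among the 43 genes with 5 or more regions none was lower, against 1.24% of all genes, a count too small to set against that share. Genes whose promoter held a region were higher in 30 of 248 cases (12.1%) and lower in 4, with a median of 0.86. Where a gene was nearest to pSSPC-only regions and to no gpSSPC-only region, 8.25% were higher and 0.566% lower (all genes 2.37% and 1.24%). Where it was nearest to both kinds, 4.13% were higher and 3.6% lower. Where it was nearest to gpSSPC-only regions alone, 1.56% were higher and 4.2% lower. Genes nearest to neither kind were higher in 1.6% of cases and lower in 0.559%, a lower share close to that near pSSPC-only regions alone. These counts are descriptions and were not tested against each other.

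**Figure D3:**
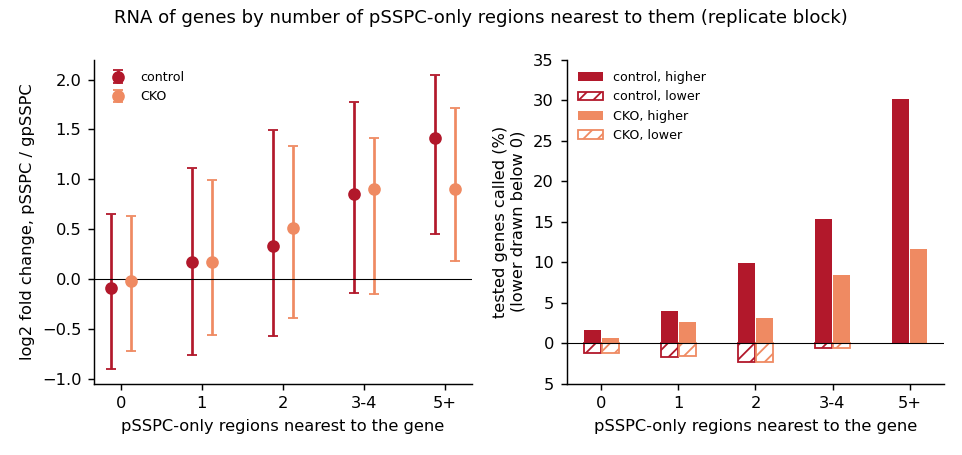
RNA of tested genes by the number of pSSPC-only regions nearest to them (x axis), in control and CKO cells with the replicate block. Left, log2 fold change of pSSPCs over gpSSPCs, with points for the median over genes and bars for the quartiles, and right, percent of genes called higher (filled) and lower (hatched, below the line). The control medians rose from −0.09 to 1.41 and the percent called higher from 1.6% to 30.2%, while in CKO the last 2 medians were both 0.90 and the percent reached 11.6%.

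Of the nearest genes that were called with the block, reached 5 CPM in a group and did not overlap between the groups, 122 were higher (6.14% of those tested, against 2.19% of all genes tested) and 32 lower (1.61%, against 1.18%). The 10 with the largest rise are named. *Card10*, a signalling scaffold (log2 fold change 4.13 ± 1.16), *Scg3*, a secretory granule protein (4.01 ± 0.86), *Tnxb*, tenascin-X of loose connective tissue (3.78 ± 0.82), *Lipa*, lysosomal acid lipase (3.75 ± 0.75), and *Plxna1*, a semaphorin receptor (3.55 ± 0.8), came first. They were followed by *Dkk2*, a Wnt antagonist (3.51 ± 0.59), *Ntf3*, a neurotrophin (3.47 ± 0.95), *Inmt*, a methyltransferase (3.47 ± 0.48), *Ifi47*, an interferon-induced GTPase (3.42 ± 0.97), and *Lgi2*, a secreted leucine-rich repeat protein (3.40 ± 0.83). Their adjusted p-values ran from 1.26e-05 (*Inmt*) to 0.041 (*Ifi47*). *Dkk2* had 142 and 162 CPM in control pSSPCs, 8.39 and 23 CPM in control gpSSPCs, 28.3 and 92.6 CPM in CKO pSSPCs and 6.83 and 22.2 CPM in CKO gpSSPCs. Of the 10 it was the only one called in CKO as well (2.03 ± 0.56, adjusted p = 0.0457). Replicate 1 of the control pSSPCs was high for several of them. *Lipa* had 493 and 179 CPM there but 8.1 and 218 CPM in CKO pSSPCs, and *Tnxb* had 181 and 55.2 CPM and then 6.07 and 36.1 CPM. Without that sample only *Dkk2* (2.75) and *Inmt* (2.85) of the 10 stayed called. *Lipa* fell from 3.75 to 0.89, *Tnxb* to 1.85, *Ntf3* to 1.88 and *Card10* to 2.42, and *Ifi47* reversed to −0.43. Without gpSSPC replicate 1, 3 of the 10 were called, and 5 without gpSSPC replicates 2 and 3.

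*Scg3* showed its region at the start, chr9:75683826-75684240, 0.034 kb from it, and *Tnxb* had 2 regions of which 1 covered its promoter. In the full lists the *Scg3* region also had a gpSSPC peak, and the *Tnxb* regions did not. *Ntf3* had 4 regions, the nearest 25.3 kb away, and the single region of *Dkk2* by this count lay 156 kb away. The promoter regions of the 2 genes were kept in all 3 CKO libraries, although *Scg3* RNA in CKO pSSPCs was 4.55 and 12.9 CPM, compared with 93.8 and 74.2 CPM in control, a difference that did not pass the test (log2 fold change −3.47, adjusted p = 0.135 with the block).

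Some genes near a pSSPC-only region were lower in pSSPCs. The 10 with the largest fall were *Epyc*, a cartilage proteoglycan (−3.35 ± 0.6), *Bmp8a*, a BMP ligand (−3.02 ± 0.77), *Grb14*, a receptor adaptor (−2.69 ± 0.75), *Pth1r*, the parathyroid hormone receptor (−2.64 ± 0.25), *Alpl*, the alkaline phosphatase of mineralizing cells (−2.61 ± 0.27), *Rspo3*, a Wnt agonist (−2.34 ± 0.6), *Stc2*, a stanniocalcin (−2.34 ± 0.53), *Nrtn*, neurturin (−2.27 ± 0.43), *Col27a1*, a cartilage collagen (−2.15 ± 0.28), and *Papss2*, which supplies sulfate for proteoglycans (−2.13 ± 0.34). *Pth1r* had 316 and 198 CPM in control pSSPCs and 1680 and 1420 CPM in control gpSSPCs (adjusted p = 1.3e-08). *Papss2* had 99.5 and 60.2 CPM against 330 and 342 CPM, and it was nearest to 1 pSSPC-only and 6 gpSSPC-only regions. Each of the other genes except *Epyc* also had a single pSSPC-only region, and all but *Rspo3* had at least 1 gpSSPC-only region. In the full lists the region of *Bmp8a*, *Grb14*, *Pth1r*, *Alpl*, *Rspo3* and *Nrtn* also had a gpSSPC peak. Those of *Stc2*, *Col27a1* and *Papss2* and 1 of the 2 of *Epyc* had no such peak, as had 60.7% of all pSSPC-only regions. *Grb14* and *Alpl* had a region without any CKO peak. Of the 10 genes, 8 were also called lower in CKO cells, all but *Grb14* and *Stc2*. With 1 sample left out 6 to 9 of the 10 were called in control cells.

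Lists of genes were read by nearest protein-coding gene. The 38 connective tissue transcription factors had 187 pSSPC-only regions at 28 genes, 15.4% of the merged regions nearest to them, against 8.69% of all merged regions, and 78 gpSSPC-only regions (6.44%, against 10.2%). In RNA, 9 of the 37 tested rose in control pSSPCs and none fell (all genes 2.37% and 1.24%), with a median log2 fold change of 0.63, and 3 rose in CKO (all genes 1.11%). *Ebf1*, a factor of stromal and fat progenitors, had 16 regions, all downstream of its start and 12 in introns, from 7.4 to 602.2 kb. Its RNA was 2390 and 791 CPM in control pSSPCs, 156 and 122 CPM in control gpSSPCs, 1500 and 392 CPM in CKO pSSPCs and 261 and 93.7 CPM in CKO gpSSPCs. The pSSPC samples were above the gpSSPC samples in both genotypes (3.24 ± 0.3, adjusted p = 1.01e-08 in control, and 2.32, adjusted p = 2.69e-06 in CKO). *Osr1*, a factor of connective tissue fibroblasts, had 7 regions, all kept in the 3 CKO libraries, and 272 and 206 CPM against 39 and 30 CPM (2.79 ± 0.39, adjusted p = 1.67e-05). *Prrx1*, the gene whose regulatory sequence drives the Cre, had 2 regions and 612 and 338 CPM against 44.5 and 96.4 CPM (2.80 ± 0.39, adjusted p = 1.61e-05), and 162 and 187 CPM in CKO pSSPCs. Neither its difference between genotypes (−1.48, adjusted p = 0.188) nor that between populations in CKO (1.07, adjusted p = 0.167) passed the test.

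Other factors of the list with a region that rose were *Ebf2* (11 regions, 2.23 ± 0.63), *Nfib* (8 regions, 2.28 ± 0.37), *Nfia* (7 regions, 1.01 ± 0.27), *Meox2* (5 regions, 2.02 ± 0.55) and *Meox1* (2 regions, 2.88 ± 0.65). Regions were as many near factors whose RNA did not pass the test. *Zeb2*, an E-box-binding repressor, had 17 regions, 16 of them upstream, beside 3 gpSSPC-only regions, and 89.7 and 101 CPM against 38.6 and 39.4 CPM (adjusted p = 0.188 in control and 0.0439 in CKO). *Klf4*, a zinc finger factor, had 17 regions, all upstream, from −516.6 to −18.9 kb, beside 10 gpSSPC-only regions, and 815 and 630 CPM against 301 and 556 CPM (adjusted p = 0.0992). *Tbx18*, a T-box factor, had 10 regions and no gpSSPC-only region, with 4.11 and 2.43 CPM against 1.68 and 6.85 CPM, values that overlapped. The 14 AP-1 and MAF factors had 22 regions, 8.98% of those nearest to them, and 26 gpSSPC-only regions (10.6%), and 0 rose and 1 fell of the 14 tested (all genes 2.37% and 1.24%), counts too small to set against those shares. *Maf*, a bZIP factor, held 11 of them beside 9 gpSSPC-only regions, and *Jun*, an AP-1 subunit, had 5 with 1110 and 1190 CPM against 922 and 1350 CPM.

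**Figure D4:**
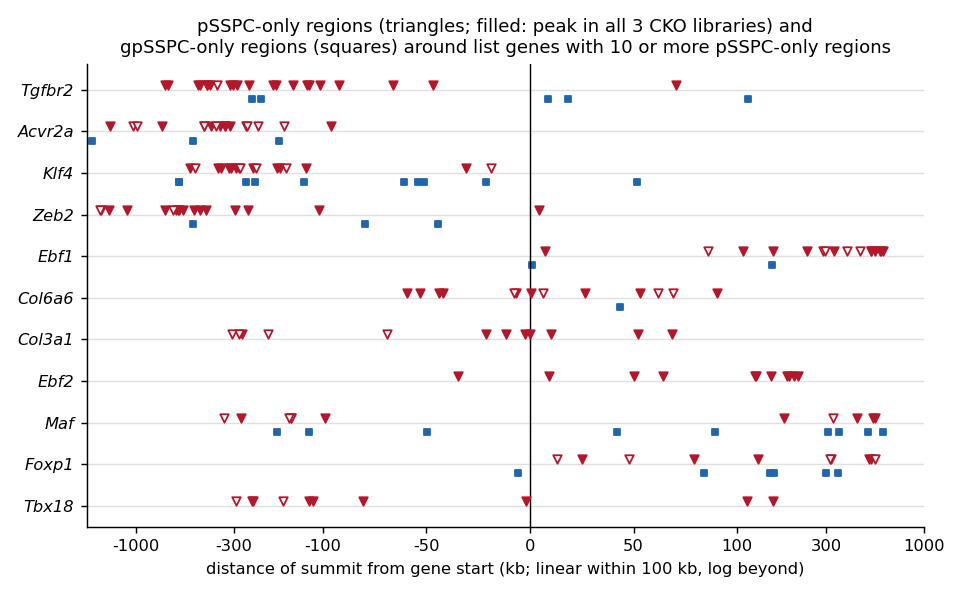
Distance of region summits from the gene start (x axis, kb, negative upstream, linear within 100 kb and logarithmic beyond) for the 11 list genes with 10 or more pSSPC-only regions, which are triangles, filled where all 3 CKO pSSPC libraries had a peak. Squares mark gpSSPC-only regions. The regions of *Ebf1* lie downstream of its start and those of *Klf4* upstream, and *Col6a6* has all 13 within 100 kb.

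Genes of the fibrillar and basement membrane matrix had 166 pSSPC-only regions at 44 of 50 genes, 17.3% of the regions nearest to them, of which 133 were kept in all 3 CKO libraries, and 40 gpSSPC-only regions (4.18%). Of 49 genes tested, 18 rose and 4 fell (all genes 2.37% and 1.24%), and 14 rose and 2 fell in CKO (all genes 1.11% and 1.25%). The 18 that rose had a pSSPC-only region, as did 44 of the 49 tested. *Col3a1*, a fibrillar collagen of soft tissue, had 12 regions and 2500 and 1470 CPM in control pSSPCs against 944 and 748 CPM in control gpSSPCs (1.19 ± 0.21, adjusted p = 0.000302). *Mfap5*, a microfibril protein, had 4 regions, all kept in CKO, and 1200 and 1830 CPM against 302 and 416 CPM (2.07 ± 0.23, adjusted p = 3.65e-07). *Dpt*, dermatopontin, had 5 regions, all kept in CKO, and 909 and 926 CPM against 293 and 295 CPM (1.64 ± 0.25, adjusted p = 4.74e-05). In all 3 genes the groups stood apart, and each was also called in CKO cells. *Fbln2*, *Nid1*, *Col4a1*, *Lamc1*, *Lama2* and *Eln*, which build elastic fibers and basement membranes, rose by 1.84 to 2.87. *Col6a6*, a collagen VI chain, had 13 regions but 9.05 and 20.4 CPM against 4.2 and 1.96 CPM (adjusted p = 0.315). The 2 genes with a region that fell were *Col12a1* (−1.55 ± 0.27) and *Col1a1*, the main collagen of bone (−0.83 ± 0.19).

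Markers of periosteal mesenchyme had 68 regions at 18 of 20 genes (22.5% of the regions nearest to them), 55 of them kept in all 3 CKO libraries, and 8 gpSSPC-only regions (2.65%). In control cells 14 of the 20 rose and none fell (all genes 2.37% and 1.24%), and 14 rose and none fell in CKO (all genes 1.11% and 1.25%). These markers describe the sorted population, so their direction is no independent evidence. *Pdgfra*, the PDGF receptor of stromal progenitors, had 2 regions, both kept, and 353 and 189 CPM against 57.5 and 77.4 CPM (2.01 ± 0.41, adjusted p = 0.0021). *Ly6a* had 1 region, which was not kept in all 3 CKO libraries. *Dpp4*, a peptidase of fibroblast progenitors, had 4 regions, all kept, with 18.1 and 63.4 CPM against 2.52 and 14.6 CPM (adjusted p = 0.137).

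Among signalling genes, the BMP and TGF-beta list had 137 regions at 38 of 46 genes (13.4%, against 8.69% of all merged regions) and 113 gpSSPC-only regions (11.0%, against 10.2%). Of the 43 tested, 6 rose and 2 fell in control (all genes 2.37% and 1.24%), with a median of −0.10, and 2 rose and 3 fell in CKO (all genes 1.11% and 1.25%), with a median of 0.03. Of the receptors, *Tgfbr2*, the type II TGF-beta receptor, had 22 regions spread from −697.8 to 70.4 kb, 21 of them upstream and 21 kept in CKO. Its RNA was 183 and 130 CPM in control pSSPCs and 61.7 and 88 CPM in control gpSSPCs, which did not overlap, but it did not pass the test (1.03 ± 0.4, adjusted p = 0.195). *Acvr2a*, an activin receptor, had 17 regions, all upstream, of which 9 were kept and 4 had no CKO peak, at 0 and 24.8 CPM against 1.68 and 6.24 CPM. *Acvrl1*, a type I receptor, rose with 3 regions (2.81 ± 0.7, adjusted p = 0.0148). Of the ligands, *Bmp4* had 3 regions and 212 and 102 CPM against 31.1 and 26.2 CPM (2.45 ± 0.57, adjusted p = 0.00791). Of the extracellular regulators, *Ltbp4* (2.59 ± 0.32) and *Ltbp1* (1.67 ± 0.46), which bind latent TGF-beta, and *Fst* (1.90 ± 0.51) and *Fstl1* (1.87 ± 0.24), a follistatin and its relative, rose with 2, 8, 2 and 4 regions. Of these 6 genes *Ltbp4* and *Fstl1* were called in CKO cells too, and *Acvrl1*, *Bmp4*, *Ltbp1* and *Fst* were not (adjusted p = 0.545, 0.517, 0.615 and 0.349). *Id2*, a BMP target, fell (−1.11 ± 0.27) and so did *Chrdl1*, a BMP antagonist (−1.76 ± 0.41).

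The Wnt list had 86 regions at 28 of 47 genes (10.3%) and 101 gpSSPC-only regions (12.1%), and 3 of 41 genes rose and 1 fell in control (all genes 2.37% and 1.24%), with a median of −0.62. In CKO 3 rose and 4 fell (all genes 1.11% and 1.25%), with a median of 0.12. The antagonist *Dkk2*, with 6 regions by this count, rose, and the agonist *Rspo3*, with 2, fell, as given above. The others that rose in control, *Sfrp1* (2.73 ± 0.58) and *Sfrp4* (1.73 ± 0.25), had no pSSPC-only region. *Axin2*, a Wnt target, had 8 regions but 0 and 12.1 CPM against 0 and 3.3 CPM. For FGF, PDGF and hedgehog genes there were 35 regions at 14 of 23 genes (10.3%) and 48 gpSSPC-only regions (14.1%), and *Pdgfra*, *Fgf18* (2.09 ± 0.44, adjusted p = 0.00317) and *Fgf7* (2.40 ± 0.65, adjusted p = 0.0316), both growth factors, rose while 3 of the 21 tested fell (all genes 2.37% and 1.24%). In CKO none of the list rose and 3 fell (all genes 1.11% and 1.25%). Cytokines and chemokines had 41 regions at 13 of 24 genes (13.0%), with 6 of 23 higher and 1 lower (all genes 2.37% and 1.24%). Of the 6 that were higher, 4 had a pSSPC-only region. *Cxcl13*, a B cell chemoattractant, had 5 regions and 255 and 179 CPM against 43.2 and 34 CPM (2.46 ± 0.42, adjusted p = 0.000298). *Ccl11*, eotaxin, had 4 regions and 206 and 613 CPM against 61.7 and 116 CPM (2.12 ± 0.36, adjusted p = 0.000238), and *Il33*, an alarmin, had 4 regions and 132 and 131 CPM against 51.2 and 15.2 CPM (2.35 ± 0.49, adjusted p = 0.0029). All 3 were called in CKO as well.

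Cartilage genes were the opposite case. The 28 cartilage matrix genes had 11 pSSPC-only regions (3.94%) and 86 gpSSPC-only regions (30.8%), and 21 of the 27 tested fell and none rose, where 1.24% of all genes fell and 2.37% rose. The 18 chondrogenic transcription factors had 37 (5.73%) and 134 (20.7%), with 6 lower and 0 higher of the 15 tested. *Sox9*, the master factor of chondrocytes, was nearest to 5 pSSPC-only and 30 gpSSPC-only regions, and had 692 and 280 CPM in control pSSPCs against 1710 and 1020 CPM in control gpSSPCs (−1.58 ± 0.24, adjusted p = 6.9e-05). The 10 osteoblast markers had 7 regions (6.42%) and 22 gpSSPC-only regions, with 5 lower and 0 higher of the 10 tested (all genes 1.24% and 2.37%).

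**Figure D5:**
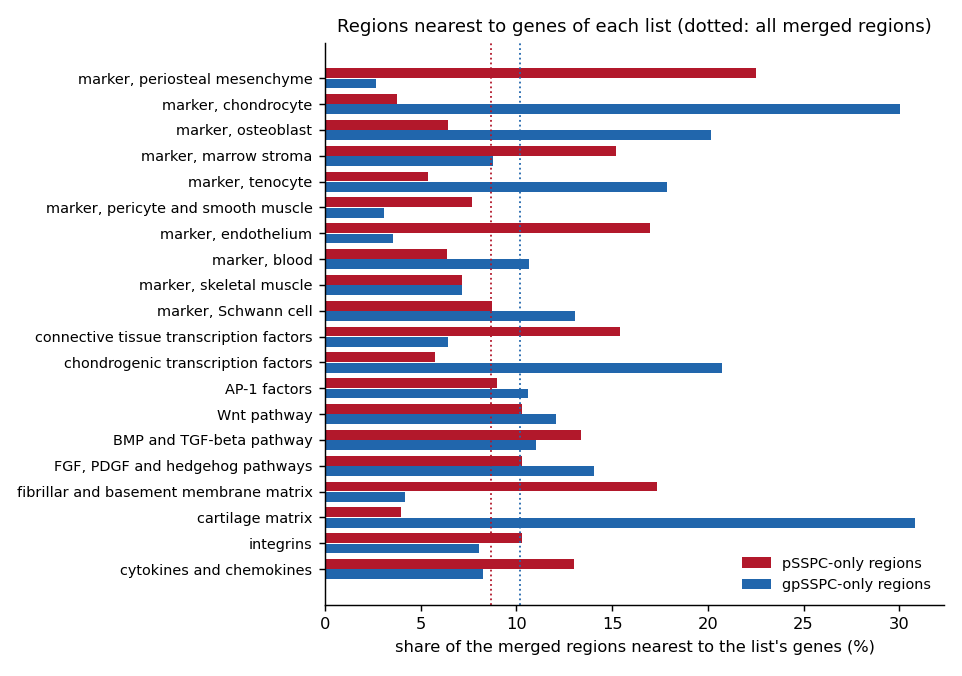
Share of the merged regions nearest to the genes of each of the 20 lists (x axis, percent) that are pSSPC-only or gpSSPC-only, with dotted lines at the shares over all merged regions (8.69% and 10.2%). Markers of periosteal mesenchyme have the highest pSSPC-only share (22.5%) and cartilage matrix genes the highest gpSSPC-only share (30.8%).

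Markers of other cells that the gate could hold were read too. The 8 endothelial markers had 19 pSSPC-only regions at 6 genes (17.0% of those nearest) and 4 gpSSPC-only regions, although CD31+ cells were sorted out. Their summed RNA was 74.1 and 122 CPM in control pSSPCs, 48.7 and 97.9 CPM in CKO pSSPCs, 24.8 and 49.6 CPM in control gpSSPCs and 32.4 and 50.9 CPM in CKO gpSSPCs. Summed over all samples *Cdh5*, a junction protein, had the highest CPM of the list, but in control pSSPCs *Egfl7*, a secreted endothelial protein, had 39.5 and 37.9 CPM and *Cdh5* 32.9 and 9.71 CPM, neither scaled by length. None of the 7 tested passed the test in control cells, where 2.37% of all genes rose and 1.24% fell. So small a list cannot be set against those shares. Its median log2 fold change was 1.85 in control (all genes −0.04) and 0.56 in CKO (all genes 0.02). *Tek*, the angiopoietin receptor, had 7 regions, including one at its promoter (chr4:94738500-94739907), with 0 and 27.1 CPM against 0.42 and 4.65 CPM (adjusted p = 0.597). The part of endothelial cells in these regions was not tested. Marrow stroma markers had 26 regions at 5 of 8 genes (15.2%) and 15 gpSSPC-only regions (8.77%), against 8.69% and 10.2% of all merged regions. *Cxcl12*, a chemokine that retains blood stem cells, and *Kitl*, stem cell factor, had 9 each. *Lpl*, a lipase of fat cells, with 3, was the only one of the 8 tested that rose (1.78 ± 0.47, adjusted p = 0.0245), and 0 fell. Those counts are too small to set against all genes (2.37% and 1.24%). Pericyte and smooth muscle markers had 5 regions at 4 of 9 genes (7.69%), tenocyte markers 3 at 3 of 7 (5.36%) and blood markers 3 at 1 of 9 (6.38%). Skeletal muscle markers had 2 at 2 of 8 (7.14%) and Schwann cell markers 2 at 1 of 6 (8.7%). These shares were near or below the 8.69% of all merged regions. *Cd3e*, *Myod1*, *Pax7*, *Myf5* and *Foxd3*, which are markers of T cells, muscle and the Schwann cell lineage, had no count in any of the 12 RNA-seq libraries. Other members of these lists did have counts. The skeletal muscle list summed to 10.7 and 72.3 CPM in control pSSPCs and to 20.6 and 47.6 CPM in control gpSSPCs. The Schwann cell list summed to 60.9 and 175 CPM and to 270 and 375 CPM, most of it from *S100b*. *Hba-a1* led the blood list, which summed to 23 and 643 CPM in control pSSPCs and to 17.6 and 2110 CPM in control gpSSPCs.

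Between CKO and control pSSPCs, few nearest genes differed. With the replicate block 1 of the 1987 was higher (0.0503%, against 0.038% of all genes) and 4 were lower (0.201%, against 0.0607%). Without it edgeR called 0, with 10 higher and 49 lower at an unadjusted p under 0.05 (72, 0.547%, and 205, 1.56%, of all genes), and DESeq2 called 0. *Has1*, a hyaluronan synthase, rose from 135 and 275 CPM to 350 and 875 CPM (1.52 ± 0.3, adjusted p = 0.0316), with its region kept in the 3 CKO libraries. *Igfbp6*, an IGF-binding protein, fell from 11000 and 4830 CPM to 3760 and 2560 CPM (−1.25 ± 0.19, adjusted p = 0.00137), and the region at its promoter was kept with a fold enrichment of 4.45, 4.39 and 3.63 in control and 4.65, 3.15 and 3.48 in CKO. *Apod*, apolipoprotein D (−1.09 ± 0.2, adjusted p = 0.0118), and *Dcn*, the collagen-binding proteoglycan decorin (−0.89 ± 0.16, adjusted p = 0.0113), fell while all but 1 of the 6 regions of *Apod* and 2 of the 3 of *Dcn*, by nearest protein-coding gene, were kept. *Inmt* fell from 141 and 447 CPM to 24.8 and 122 CPM (−2.25 ± 0.45, adjusted p = 0.0316). By nearest gene it alone of the 5 had no region that was kept in the 3 CKO libraries. Its promoter region (chr6:55174824-55175384) had a fold enrichment of 6.43, 6.33 and 5.88 in control and a peak, of 4.85, in CKO replicate 1 only, and its other region had a peak in CKO replicate 2 only. Assigned by protein-coding gene, *Prg4* (1.67 ± 0.3) and *Myoc* (−1.33 ± 0.23) were added. The count rested on single samples, with 0 calls without control pSSPC replicate 1, 1 without CKO replicate 1, 9 without CKO replicates 2 and 3 and 65 without control replicates 2 and 3.

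The genes near regions without a CKO peak were read for the same comparison. Of the 532 genes nearest to a region without a CKO peak, 141 were tested, and edgeR called 0 between CKO and control pSSPCs with or without the block, which at 0.038% higher and 0.0607% lower calls among all genes says nothing about these regions. Their median log2 fold change was −0.18 with the block, against −0.05 for all nearest genes. At an unadjusted p under 0.05 the block gave 2 higher and 11 lower of the 141, against 347 higher and 638 lower of all 13173 genes, which lean the same way, and DESeq2 called 0. The difference between populations was itself compared between genotypes, and 0 of the 1987 nearest genes had an adjusted p under 0.05 for this interaction with the block, with 102 (5.13%) at an unadjusted p under 0.05. Of all 13173 genes, 2 had such an adjusted p and 648 (4.92%) such an unadjusted p, a share close to that of the nearest genes.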

How the data were processed

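Peak lists and gene counts were deposited by the authors, with reads aligned to mm10, per the labels and the study's methods. ATAC-seq peaks had been called per library with MACS2 without a control sample (q-value 0.05), with its paired-end mode off per the file headers although the libraries were sequenced from both ends, after alignment with Bowtie2 and removal of duplicates. The deposited −log10 q-values ranked the peaks, and the deposited fold enrichment and pileup (signal) describe them. Tags were 12250713 to 46756821 per library. RNA-seq counts per gene were made by the authors with STAR and HTSeq after UMI deduplication, and the files list 53801 genes.

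Regions were merged from lists of 59183 peaks and placed by the GENCODE annotation of this build (promoter, within 1 kb of a transcript start). RNA counts were tested with edgeR 4.0.16 in R 4.3.3 (glmQLFit, TMM, filterByExpr, Benjamini-Hochberg over 13173 genes, adjusted p under 0.05) over all 4 groups, leaving 4 residual degrees of freedom (3 once the block is added). DESeq2 1.42.0 was an alternative. No label says that replicates came from separate mice. Same-numbered samples deviated together in every pair, by the correlation of their deviations from the group means (0.524 to 0.582), so the replicate block is printed. Since the fit without it made 0 calls, named genes came from the blocked fit: the 10 nearest genes with the largest change each way among those called, at 5 CPM or more in a group and without overlap. Other genes were named from lists, or after their values were seen. A motif search at peak summits was not made, for want of the mm10 sequence, and 250 bases before RefSeq starts were searched instead. Scripts were tested on simulated data. The regions and lists were chosen with earlier results of these data known. CPM values are not per length, and the tests compare them within genes only. Where genes of a marker list are ranked by CPM, the rank is a description not scaled by length. Python 3.11.15 was used with pandas 2.3.3, numpy 2.4.6 and scipy 1.17.1.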

Additional observations from a re-analysis of the deposited data

How the results depend on the processing

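The number of pSSPC-only regions (10622) fell to 5897 with lists reduced to 50% of the shortest, was 7660 with full lists, 9882 with ranks by fold enrichment and 10012 with summits within 100 bp, and was 10627 to 13559 with single libraries left out. The mean share kept per CKO library (84.9%) was 92.2% with full lists, 84.0% with lists of 50%, 82.8% with ranks by fold enrichment, 82.0% with summits within 100 bp and 78.6% to 85.4% with a library left out. The promoter share (7.21%) was 6.24%, 8.85% and 9.0% with full lists, lists of 50% and summits, 11.8% with promoters of 2 kb, and 7.18% to 7.46% with a library left out.

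In edgeR without the replicate block, 0 nearest genes were called in the 3 RNA comparisons. Under the replicate block there were 167 in control, 100 in CKO and 5 for CKO against control pSSPCs. Without the block DESeq2 called 100 and 31 in the first 2 and edgeR with each library as a sample 178 and 107, each library with the block 459, 339 and 80, and edgeR on all genes with a count, without the block, 32, 14 and 1. With the block and a sample left out, the counts were 58 to 239 in control (58 and 77 without gpSSPC replicate 1 and without replicates 2 and 3, 93 and 239 without those of pSSPCs), 41 to 86 in CKO (41 and 51 for gpSSPCs, 43 and 86 for pSSPCs) and 0 to 65 between genotypes (0 and 65 without control replicate 1 and without replicates 2 and 3, 1 and 9 without those of CKO). Alternatives chosen after seeing the data were these blocked fits with a sample left out and the block with genes within 50 kb (152, 91 and 5), with protein-coding genes (240, 147 and 7) and with full lists (145, 76 and 5). A lone sample of a group was then taken to vary like the other groups. The cause of these changes was not tested. Without the block, edgeR on the summed samples called none of the 20 named genes, while DESeq2 called 15, each library as a sample 15 and all genes with a count 8. They were named from the blocked fit. Without pSSPC control replicate 1, 2 of the 10 higher and 7 of the 10 lower stayed called, 5 of the higher moved by over 1.5 times and *Ifi47* reversed to −0.43. Without pSSPC replicates 2 and 3, 10 and 9 were called, without gpSSPC replicate 1, 3 and 6, and without gpSSPC replicates 2 and 3, 5 and 6. With 2 samples a group the precision is set by 3 residual degrees of freedom with the block and 4 without. Control pSSPC replicate 2 had the fewest tags, and the part of tags in the peak calls was not tested.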

Other observations

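Chromosome X held 255 pSSPC-only regions, 10.0% of its 2538 merged regions, and a gpSSPC-only share of 6.23%. Of the peaks kept per library, 2.39%, 2.47% and 2.38% lay on X in control pSSPCs, 2.17%, 2.25% and 2.13% in CKO pSSPCs, 1.87%, 1.99% and 1.84% in control gpSSPCs and 1.91%, 2.01% and 1.87% in CKO gpSSPCs. The 3 control pSSPC libraries were above all others, and the CKO pSSPC libraries were above the gpSSPC libraries.

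Integrin genes, the receptors that hold cells to matrix, had 23 pSSPC-only regions at 11 of 17 genes (10.3% of those nearest, against 8.69% of all merged regions) and 18 gpSSPC-only regions (8.04%, against 10.2%). None rose and 1 fell of the 17 tested in control cells with the replicate block, where 2.37% of all genes rose and 1.24% fell, and the counts are too small to set against those shares.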
